A study of Mus musculus with 11 samples.

Results

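To ask what the ERG transgene adds to a prostate that already carries mutant Trp53, the 3 libraries labelled Pb-ERG, Trp53pcR172H/- were compared with the 2 libraries labelled Trp53pcR172H/-. These are 5 of the 11 libraries of the series, chosen by their labels alone. The study states that it left out the data of a Trp53pcR172H/- mouse because of poor quality. All 5 were made from total RNA of prostate tissue of C57BL/6 mice at 15 months of age. Both groups share Pb-Cre, a Cre recombinase driven by the probasin promoter, and through it prostate cells with 1 Trp53 allele converted to R172H and the other deleted. The 3 libraries of the first group, called ERG/Trp53 from here on, also carry Pb-ERG, an N-terminally truncated human TMPRSS2-ERG product under the probasin promoter. Cre and ERG therefore act only in cells that use the probasin promoter, whereas the tissue also holds muscle, vessels and immune cells. The study that reported these libraries describes the ERG/Trp53 tissue as prostate tumours, in a series of benign or cancerous tissue. An effect of ERG and an effect of tumour state therefore cannot be told apart in this comparison. The remaining 6 libraries, 3 WT and 3 Pb-ERG with wild-type Trp53, also at 15 months of age, entered the fit for its estimate of the spread. They also gave the ERG effect without the Trp53 change. The genotypes listed in the study name Pb-Cre for the Trp53 groups but not for WT or Pb-ERG. Cre may therefore differ along with Trp53 between the 2 ERG effects. Replicates are numbered in the labels without naming the animals, so the p-values measure only the spread between these libraries.

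ERG belongs to the ETS family of transcription factors, which bind DNA at a GGAA core. In prostate cancer the TMPRSS2-ERG fusion places ERG under an androgen-responsive promoter, so that epithelial cells make a factor that is normally found in endothelial and blood-forming cells. The tumour suppressor p53 restrains division and survival of damaged cells, and R172H is a missense change in its DNA-binding domain that abolishes normal target activation. The prostate itself is a gland of secretory luminal cells on a layer of basal cells, wrapped in smooth muscle.

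The 5 libraries held between 14280978 and 31435034 fragments, from which the authors' FPKM (fragments scaled by exon length and library total) were made. Between 12691 and 14557 genes per library reached an FPKM of 1. The 10 most abundant genes took 25.5% and 27.1% of the fragments in the Trp53pcR172H/- libraries and 10.6% to 16.1% in the ERG/Trp53 libraries. The short RNAs Rn7sk, Rpph1 and Rmrp together took 1.67% of the fragments in Trp53pcR172H/- replicate 1, 7.06% in replicate 2, and 6.69%, 4.67% and 10.3% in the ERG/Trp53 libraries. Thus the libraries of the ERG/Trp53 group matched only 1 Trp53pcR172H/- library in this respect, and the part of this difference in the results was examined only through the fits with and without that library or with a class term. Genes are compared on log2(FPKM + 1), and a log2 fold change is the ERG/Trp53 mean minus the Trp53pcR172H/- mean on that scale, which understates the change of weakly expressed genes.

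The engineered genes were examined first. Erg (chr16:95359169-95586593, GRCm38) had an FPKM of 0.441 and 0.768 in the Trp53pcR172H/- libraries and of 19.6, 9.21 and 6.65 in the ERG/Trp53 libraries. Every ERG/Trp53 library lay above both others, with a log2 fold change of 2.88 (SE 0.384, limma adjusted p = 0.00108). The transgene is human, and fragments that did not align to the mouse gene are not in this value. Trp53 (chr11:69580359-69591873) had 3.15 and 2.55 against 4.90, 6.66 and 5.22, a log2 fold change of 0.77 (SE 0.217, limma adjusted p = 0.037). FPKM do not separate mutant from wild-type Trp53 transcripts. Trp53 did not pass 0.05 without WT replicate 3, Trp53pcR172H/- replicate 1, Trp53pcR172H/- replicate 2 or ERG/Trp53 replicate 2 (limma adjusted p from 0.0635 to 0.224), nor with median-of-ratios scaling (0.0772), and its adjusted p ranged from 0.0307 to 0.224 over the alternatives.

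Adding ERG went with more rises than falls. Of 15583 genes tested, 155 were higher in ERG/Trp53 (0.995%) and 17 lower (0.109%) at an adjusted p under 0.001 in limma, the false discovery rate used in the study. At 0.05, the threshold behind the words rose and fell here, 1791 genes rose (11.5%) and 509 fell (3.27%), together 14.8%. The 3 ERG/Trp53 libraries lay entirely above both others for 30.1% of all genes and entirely below for 12.5%, together 42.6%. Scaling moved this balance. The median log2 fold change of all genes was 0.22 with the authors' library totals and 0.02 with median-of-ratios size factors, under which 1468 genes rose and 1203 fell, and with upper-quartile scaling 1466 rose and 1205 fell. Changes are therefore best read against a shift of 0.22. All 2300 genes called at 0.05 kept their direction under each of 22 alternatives that tested them, 587 of them passed 0.05 in every one, and all 172 genes called at 0.001 passed 0.05 in every one. The count at 0.001 was 1 without Trp53pcR172H/- replicate 1 and 1 without replicate 2, 63 without ERG/Trp53 replicate 2, from 59 to 60 without a WT library, and 91 and 85 without Pb-ERG replicates 2 and 3. At 0.05 it was 962 and 980 without Trp53pcR172H/- replicates 1 and 2. With 1 Trp53pcR172H/- library left, that library was assumed to vary as the other groups do.

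**Figure D1:**
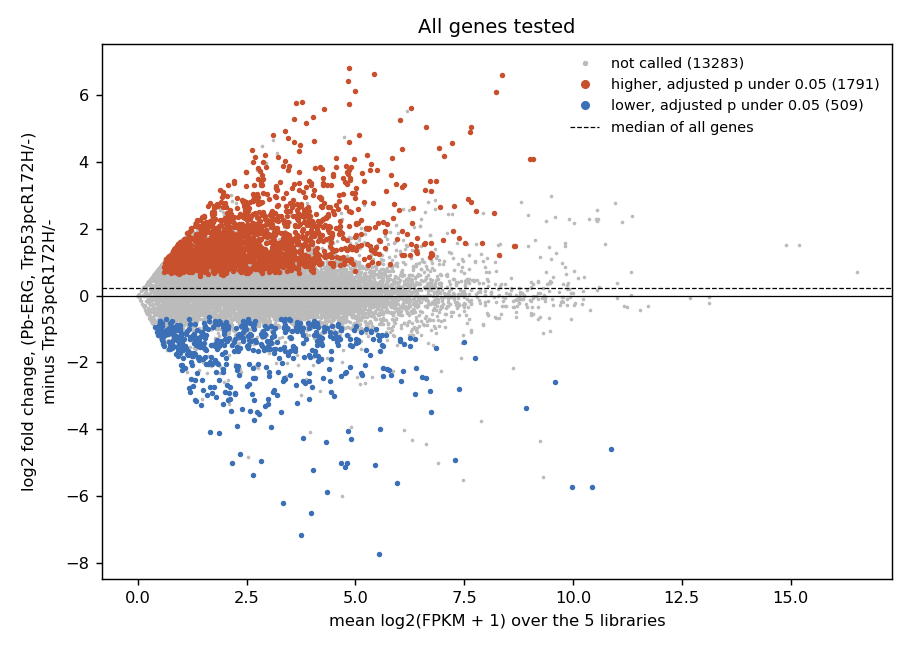
Each point is 1 of 15583 genes, with its mean log2(FPKM + 1) over the 5 libraries on the x axis and its log2 fold change (ERG/Trp53 minus Trp53pcR172H/-) on the y axis. Coloured points passed an adjusted p of 0.05 (1791 higher, 509 lower), and the dashed line is the median of all genes, 0.22.

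Of the 12 largest rises, protease inhibitors and a related protein are described first, with no test of their share. Ctla2a and Ctla2b encode small inhibitors of cathepsin-type cysteine proteases and lie side by side on chromosome 13. Ctla2a (chr13:60934155-60936625) had an FPKM of 19.2 and 20.9 in Trp53pcR172H/- and of 3710, 1640 and 1440 in ERG/Trp53 (log2 fold change 6.62, SE 0.734, adjusted p = 0.000463). Ctla2b (chr13:60895351-60897447) had 0.555 and 0.855 against 62.3, 62.6 and 55.7, the tightest rise of the 12 (log2 fold change 5.17, SE 0.23, adjusted p = 2.76e-06). The copies are alike in sequence and fragments may be shared between them, so the split between them is uncertain. A2m, alpha-2-macroglobulin, a broad protease trap of plasma, had 0.266 and 0.015 against 47.4, 87.2 and 55.1 (log2 fold change 5.78, adjusted p = 0.000141). Serpinb11, a clade B serpin, had 1.63 and 1.68 against 298, 96.8 and 98.5 (5.75, adjusted p = 0.000276). Serpina1b, an alpha-1-antitrypsin gene among close copies that may share fragments, had 0.254 and 0.0932 against 97.3, 24.7 and 13.0 (4.81, adjusted p = 0.000741). Wfdc18, a secreted protein with a whey acidic protein (WAP) domain, the fold of several protease inhibitors, had 7.94 and 5.38 against 367, 229 and 604 (5.62, adjusted p = 0.000239). In each of these genes even the lowest ERG/Trp53 library was far above both Trp53pcR172H/- libraries.

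The other rises were of mixed kinds. Lman1l (chr9:57607085-57620774), a relative of a lectin that carries glycoproteins out of the endoplasmic reticulum, had the highest log2 fold change. Its FPKM was 2.44 and 1.16 in Trp53pcR172H/- and 630, 193 and 161 in ERG/Trp53 (6.63, SE 0.66, adjusted p = 0.000268). Wfdc2, like Wfdc18 a WAP protein and one of ductal epithelia, rose from 26.1 and 19.5 to 2690, 1470 and 1100 (6.11, adjusted p = 0.000741), and Dapl1 from 0.833 and 1.10 to 585, 84.1 and 93.2 (6.42, adjusted p = 0.000741). Replicate 1 of ERG/Trp53 was the highest library for Lman1l, Ctla2a, Wfdc2, Dapl1, Serpinb11, Srgn and Serpina1b. Srgn, serglycin, a proteoglycan of secretory granules in blood cells and endothelium, had 7.06 and 5.75 against 503, 183 and 238 (5.25, adjusted p = 0.000129). Ly6c1, a membrane-anchored surface protein of endothelial and myeloid cells, had 28.4 and 19.6 against 1020, 368 and 1430 (5.05, adjusted p = 0.000875). Over the alternatives the adjusted p of the 24 largest rises and falls stayed at or under 0.0261, the value of Serpina1b in the fit to the 5 libraries alone, but most missed 0.001 without Trp53pcR172H/- replicate 1 or replicate 2, where 1 of the 24 passed in each case.

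**Figure D2:**
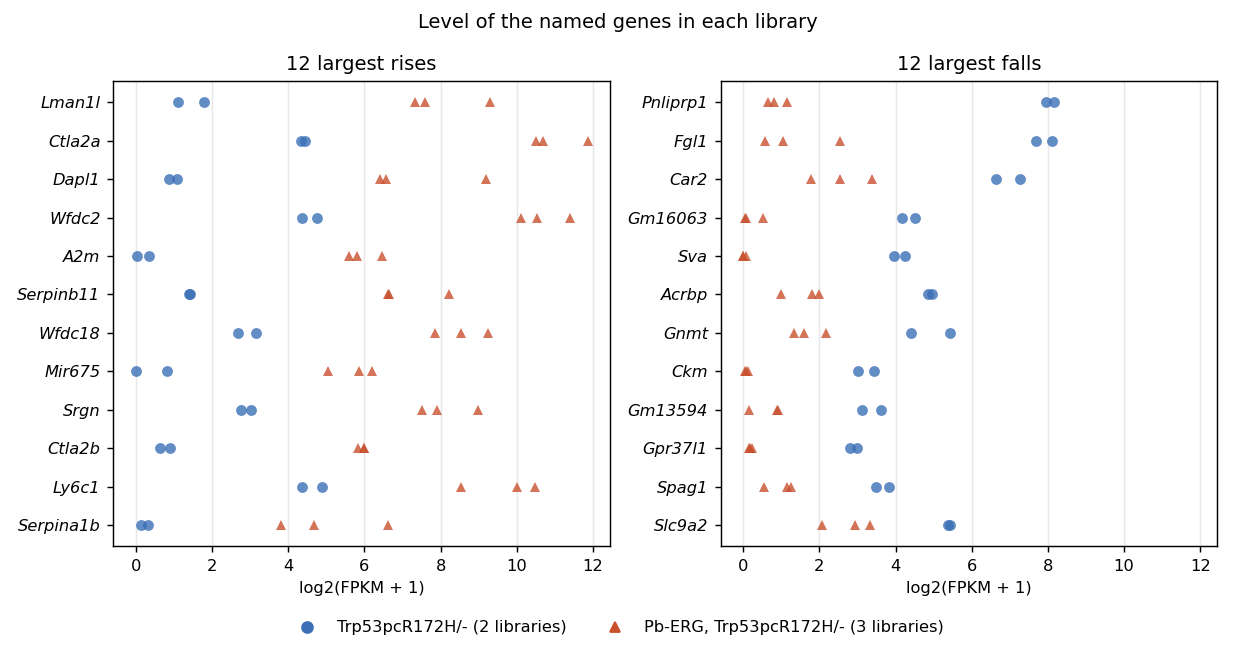
Level of the 12 largest rises (left) and 12 largest falls (right) in each library, as log2(FPKM + 1) on the x axis, with circles for the 2 Trp53pcR172H/- and triangles for the 3 ERG/Trp53 libraries. In no gene do the groups overlap, which the naming rule required.

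Mir675 was the one non-coding locus among these rises (chr7:142577064-142577147). It lies inside H19, an imprinted long non-coding RNA from which the microRNA is cut, and its fragments cannot be told from those of H19. Mir675 had an FPKM of 0.757 and 0 in Trp53pcR172H/- (2 and 0 fragments) and of 32.3, 72.8 and 57.2 in ERG/Trp53 (51, 166 and 101 fragments; limma adjusted p = 0.000613). H19 itself had 3.05 and 0.429 against 34.1, 86.3 and 67.2 (log2 fold change 4.63, adjusted p = 0.00146). The neighbouring imprinted gene Igf2, a fetal growth factor, had 0.552 and 1.25 against 5.22, 8.92 and 35.8 (2.81, adjusted p = 0.0197). Igf2 and H19 were named after their values were seen. The mature forms were not measured here, and they are shown, from RefSeq on GRCm38.p6, minus strand, as the products this locus encodes, with the seed (bases 2 to 8) in capitals. Their seeds differ.
miR-675-3p: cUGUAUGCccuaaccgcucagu
miR-675-5p: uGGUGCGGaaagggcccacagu

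Among the 12 largest falls were genes of digestion-type enzymes, metabolism and ion transport that the Trp53pcR172H/- prostate expressed at a high level. Pnliprp1 (chr19:58728887-58744169), a relative of pancreatic lipase, had an FPKM of 247 and 283 in Trp53pcR172H/- and of 0.559, 0.751 and 1.23 in ERG/Trp53 (log2 fold change -7.18, SE 0.68, adjusted p = 0.000211). Fgl1, a secreted fibrinogen-like protein, had 274 and 204 against 0.475, 4.87 and 1.06 (-6.50, SE 0.631, adjusted p = 0.000243). Car2, a carbonic anhydrase, had 153 and 97.9 against 2.44, 9.51 and 4.84 (-4.37, adjusted p = 0.000492). All 3 were at comparable levels in WT libraries, where the FPKM was 163 to 384 for Pnliprp1, 192 to 337 for Fgl1 and 89.9 to 219 for Car2. Slc9a2, a sodium-proton exchanger of epithelia, had 40.6 and 42.1 against 3.21, 6.68 and 9.14 (-2.62, adjusted p = 0.000922). Gnmt, glycine N-methyltransferase, had 20.3 and 42.4 against 2, 1.53 and 3.5 (-3.23, adjusted p = 0.000924).

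Smaller or less abundant genes made up the rest of the falls. Acrbp, which binds the sperm protease acrosin, had 27.7 and 30.2 against 0.975, 2.49 and 2.96 (log2 fold change -3.31, adjusted p = 0.000673). Spag1, a factor of ciliary dynein assembly, had 13.2 and 10.2 against 1.38, 1.21 and 0.462 (-2.67, adjusted p = 0.000674). Gpr37l1, an orphan receptor, had 6.87 and 5.96 against 0.117, 0.179 and 0.126 (-2.70, adjusted p = 0.000141), and both groups were tight. Ckm, muscle creatine kinase, had 7.13 and 9.85 against 0.0376, 0.052 and 0.101, that is 1, 2 and 3 fragments in the ERG/Trp53 libraries (-3.14, adjusted p = 0.000875). The predicted genes Gm16063 and Gm13594 fell by 4.12 and 2.72 on the log2 scale (adjusted p = 0.000257 and 0.000268 in limma). Sva, a secretory protein of the seminal vesicle, had 17.9 and 14.6 in Trp53pcR172H/- and 0, 0.0566 and 0 in ERG/Trp53, where 1 fragment in all was found. Sva was also at 0, 0.0944 and 0 in WT, so that it was high in the Trp53pcR172H/- libraries alone among these 3 groups, and other genes of the seminal vesicle moved with it as described further on.

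ETS factors often bind near the starts of genes, and the promoters of the named genes were searched for an ETS motif, CCGGAAG or CAGGAAG on either strand, from 250 bases before to 50 after the start of the gene as RefSeq gives it on GRCm38.p6. The motif was in 20.9% of the 27025 promoters of that table. A promoter was listed for 10 of the 12 largest rises, of which 5 held the motif (Lman1l, Ctla2a, Serpinb11, Srgn and Ctla2b), and for 7 of the 12 falls, of which 1 held it (Sva). Only 67.6% of all genes tested had a listed promoter, so a comparison of shares between called and other genes is void. Among those that had one, the share with the motif was 28.2% of the genes tested. It was 20.0% of the genes higher at 0.05 and 20.4% of those lower at 0.05. At 0.001 it was 17.2% of the higher genes, and 1 of 10 promoters of the lower genes held it. These shares are a description and were not tested, and the counts of the named genes were not tested against them. The 2 largest rises and the largest fall with a match are shown 5′ to 3′ on the strand of the gene with the motif in capitals. For Lman1l (chr9:57620725-57621024, minus strand) it begins 187 bases before the start. For Ctla2a (chr13:60936576-60936875, minus strand, the first of 2 promoters listed) it lies just after the start. In Sva (chr6:42038144-42038443, plus strand) the match is on the opposite strand and begins 44 bases before the start. A match is a description of the sequence and not a measurement of binding.
Lman1l: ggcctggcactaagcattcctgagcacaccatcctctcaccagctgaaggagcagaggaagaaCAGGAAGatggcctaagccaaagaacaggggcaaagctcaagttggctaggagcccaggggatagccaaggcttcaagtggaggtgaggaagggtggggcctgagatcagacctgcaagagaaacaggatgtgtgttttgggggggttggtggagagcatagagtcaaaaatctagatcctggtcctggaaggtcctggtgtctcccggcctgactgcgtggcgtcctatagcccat
Ctla2a: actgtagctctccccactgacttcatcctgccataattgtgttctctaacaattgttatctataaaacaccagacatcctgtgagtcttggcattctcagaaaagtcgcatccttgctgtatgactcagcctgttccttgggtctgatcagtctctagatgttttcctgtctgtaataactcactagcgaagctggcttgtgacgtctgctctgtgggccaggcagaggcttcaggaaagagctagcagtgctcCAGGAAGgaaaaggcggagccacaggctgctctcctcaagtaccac
Sva: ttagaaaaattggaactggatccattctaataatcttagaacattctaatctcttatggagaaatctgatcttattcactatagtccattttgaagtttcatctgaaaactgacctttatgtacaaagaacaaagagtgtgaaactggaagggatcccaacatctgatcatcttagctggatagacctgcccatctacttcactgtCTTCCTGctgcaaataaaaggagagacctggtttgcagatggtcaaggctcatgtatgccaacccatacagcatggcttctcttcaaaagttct

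Gene lists for the cell types and pathways of the gland were then read by their counts against the background of 11.5% higher and 3.27% lower. Of 10 secretory products of the prostate 3 fell, 0 rose and 7 were not called (median log2 fold change -4.16), and 5 lay below without overlap, against 12.5% of all genes. Pbsn, probasin, whose promoter drives both transgenes, had an FPKM of 9570 and 16700 in Trp53pcR172H/- and of 112, 605 and 2140 in ERG/Trp53 (-4.59, SE 1.03, adjusted p = 0.0135). Tgm4, the transglutaminase that clots semen, had 19000 and 11800 against 27.1, 2200 and 367 (-5.73, adjusted p = 0.025). The gene 9530003J23Rik had 1260 and 1070 against 1.26, 16.0 and 3.13 (-7.75, adjusted p = 0.0162). Within ERG/Trp53, Pbsn was lowest in replicate 1 and highest in replicate 3. Msmb, beta-microseminoprotein, was not called, with 73.4 and 7870 against 287, 1340 and 5350. Msmb thus differed widely inside the Trp53pcR172H/- group, as did Sbp with 20.8 and 41000, and the cause was not tested. Pbsn, Tgm4 and 9530003J23Rik each missed 0.05 without Trp53pcR172H/- replicate 1 (limma adjusted p = 0.0544, 0.132 and 0.0899) and without replicate 2 (0.0973, 0.0982 and 0.0851). In bulk tissue, fewer cells of a type and less RNA per cell cannot be told apart.

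General luminal markers did not follow the secretory products. None of the 10 members passed 0.05 (median -0.25). The luminal keratin Krt8 had an FPKM of 277 and 156 in Trp53pcR172H/- and of 233, 148 and 191 in ERG/Trp53, and Krt18 had 579 and 490 against 484, 293 and 287. Of 11 genes of the androgen response 0 rose and 3 fell (median -0.39), namely Pbsn, Tmprss2 and Slc45a3. The target Fkbp5 had 18.9 and 46.6 against 89.4, 33.9 and 38.5 (0.70, adjusted p = 0.418). Tmprss2, the androgen-responsive protease gene of the human fusion, had 140 and 50.7 against 21.9, 29.6 and 20.5 (-1.79, adjusted p = 0.0174). Slc45a3 had 33.9 and 35.0 against 17.1, 19 and 17.2 (-0.92, adjusted p = 0.0435). Tmprss2 missed 0.05 without Trp53pcR172H/- replicate 1 (0.168). The limma call of Slc45a3 was lost without any 1 of the WT, Trp53pcR172H/- and ERG/Trp53 libraries (adjusted p from 0.0617 to 0.191).

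**Figure D3:**
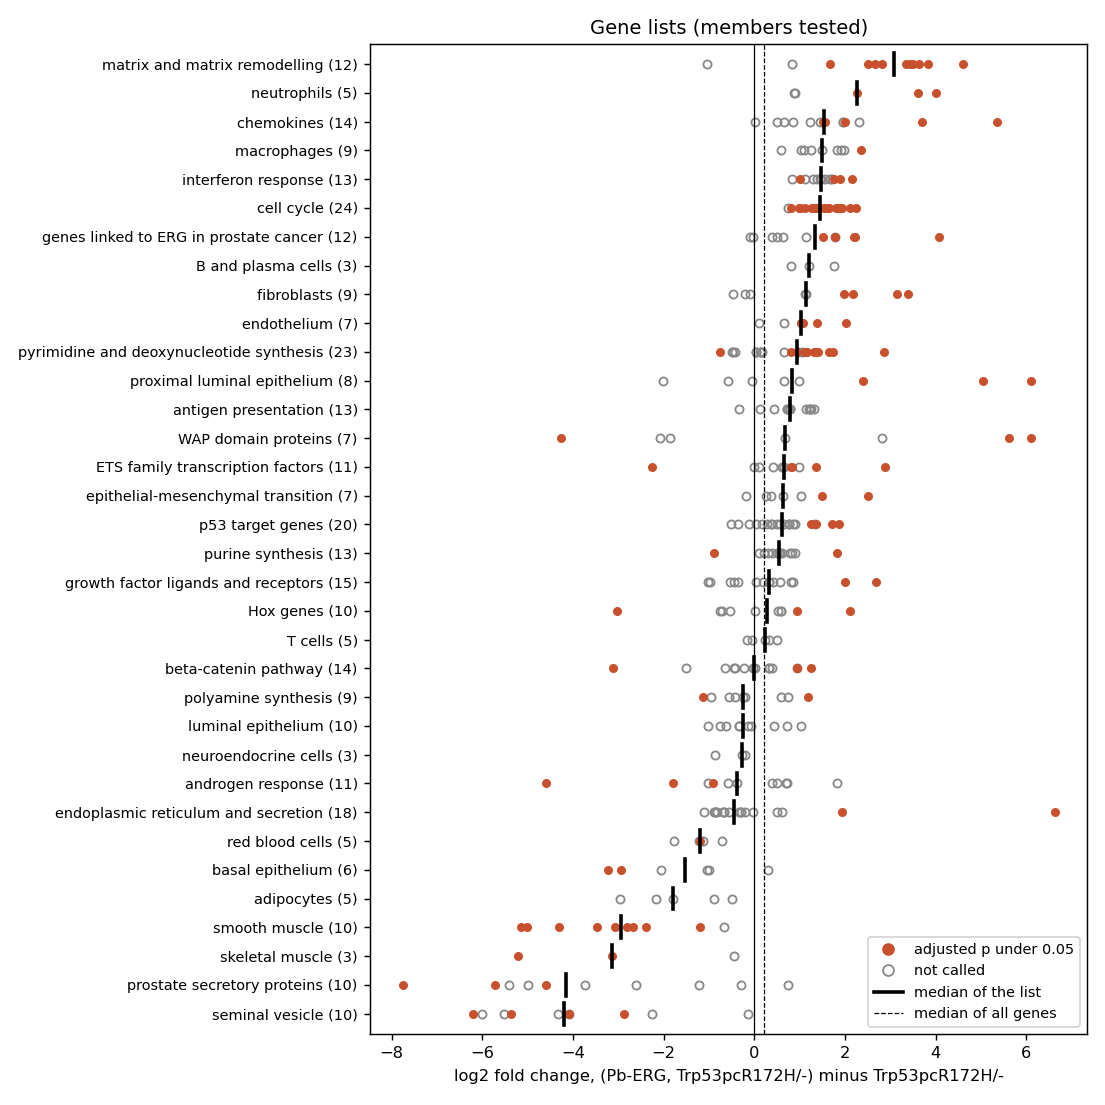
Log2 fold change (ERG/Trp53 minus Trp53pcR172H/-, x axis) of each tested member of 34 gene lists, with filled points for an adjusted p under 0.05 and a bar at the median of the list. The seminal vesicle list is lowest (median -4.21) and the matrix list highest (3.09), and the dashed line marks the median of all genes, 0.22.

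Markers of the proximal luminal cells, which line the ducts near the urethra, were divided. Of 8 members 3 rose, 0 fell and the median was 0.82. Ly6d, a surface protein of this population, had 20.9 and 5.65 against 897, 467 and 150 (log2 fold change 5.05, SE 0.686, adjusted p = 0.00118). Krt7, a ductal keratin, had 5.54 and 1.98 against 53.7, 14.5 and 13.6 (2.39, adjusted p = 0.0231), a call that was lost without Trp53pcR172H/- replicate 2 (limma adjusted p = 0.194). The third was Wfdc2. Against these, the keratin Krt4 had 8.19 and 13.3 against 10.4, 14.6 and 6.63, with overlap between the groups. Of the basal list, 2 of 6 fell and 0 rose (median -1.54). Krt5, the keratin that defines basal cells, had 20.2 and 11.2 against 0.243, 1.70 and 1.76 (-2.94, adjusted p = 0.00712). Krt15 had 59.1 and 37.1 against 1.5, 6.54 and 6.24 (-3.22, adjusted p = 0.0053). The basal regulator Trp63 had 2 and 1.02 against 0.0444, 0.285 and 0.278 (-1.04, adjusted p = 0.0619). Both basal calls were lost without Trp53pcR172H/- replicate 1 (limma adjusted p = 0.0714 for Krt5 and 0.0556 for Krt15). The neuroendocrine list had 3 of 6 members tested and none called, and Chga and Syp stayed under an FPKM of 3 in all 5 libraries.

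Smooth muscle genes fell. Of 10 members 9 fell and 0 rose (median -2.94), and for all 10 every ERG/Trp53 library lay below both others, where 12.5% of all genes did so. Myh11, smooth muscle myosin, had 174 and 304 against 0.938, 3.98 and 28.1 (log2 fold change -5.14, SE 0.92, adjusted p = 0.00442). Cnn1, calponin, had 180 and 281 against 1.59, 3.79 and 26.6 (-5.01, adjusted p = 0.0043). The actin genes Acta2 and Actg2 fell by 3.48 and 4.30 on the log2 scale (adjusted p = 0.0143 and 0.014 in limma), with Acta2 at 363 and 572 against 13.4, 38.9 and 117. In each of these genes replicate 1 of ERG/Trp53 was lowest and replicate 3 highest. Of the 9 calls, 5 held without Trp53pcR172H/- replicate 1, 3 without replicate 2, and 3 (Myh11, Cnn1 and Lmod1) under every alternative. Without Trp53pcR172H/- replicate 1 or replicate 2 the limma calls of Acta2 (adjusted p = 0.0589 and 0.109) and Actg2 (0.0717 and 0.0894) were lost. Of the skeletal muscle list 3 of 6 members were tested and 2 fell. Acta1, skeletal actin, had 119 and 168 against 0.594, 1.28 and 14.5 (-5.21, adjusted p = 0.00407), and the other was Ckm. Mylpf, a skeletal myosin light chain, was not called (-0.44, adjusted p = 0.402), and the skeletal genes Myh2, Myh4 and Tnnt3 stayed under an FPKM of 1 in all 5 libraries.

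The seminal vesicle adjoins the prostate, and its genes check the tissue label. Their summed FPKM was 11100 and 3820 in Trp53pcR172H/- and 524, 750 and 130 in ERG/Trp53, and it ran from 288 to 12300 in WT and from 74.4 to 28400 in Pb-ERG. Of 10 members 4 were lower and 0 higher (median -4.21). Besides Sva these were Svs1, Svs3b and Svs3a. Svs3b had 88.9 and 37.1 against 0.17, 0.413 and 0.724 (-5.37, adjusted p = 0.0107), and Svs3a had 179 and 96.7 against 0.443, 2.3 and 0.238 (-6.20, adjusted p = 0.0392). The call of Svs3b was lost without Trp53pcR172H/- replicate 1 (limma adjusted p = 0.0902), and that of Svs3a without any 1 of the WT, Trp53pcR172H/- and ERG/Trp53 libraries (0.055 to 0.178). Svs2 had 217 and 32.5 against 3.51, 2.82 and 6.43, and Svs4 had 5470 and 2490 against 204, 555 and 52.4, neither of them called (adjusted p = 0.365 and 0.17 in limma). Of the 4 calls, 1 held without Trp53pcR172H/- replicate 1 and 2 without ERG/Trp53 replicate 2. The seminal vesicle, smooth muscle and secretory sums were all lower in ERG/Trp53, but within the groups they did not run together. Trp53pcR172H/- replicate 1 had the higher seminal vesicle sum and the lower secretory sum (34100 against 138000) and smooth muscle sum (1440 against 2350), and ERG/Trp53 replicate 3 had the lowest of the first and the highest of the others (22500 and 464). The part of the seminal vesicle level in those results was not tested. Fat and blood genes varied within groups. None of 5 adipocyte genes was called, with a summed FPKM of 137 and 27.8 against 1.62, 4.97 and 44.6. Of the 5 red blood cell genes 1 fell, Alas2, with 7.11 and 7.87 against 2.01, 2.3 and 4.14 (adjusted p = 0.0248), and its limma call was lost without either Trp53pcR172H/- library or without ERG/Trp53 replicate 1 or 2 (0.0631 to 0.142).

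**Figure D4:**
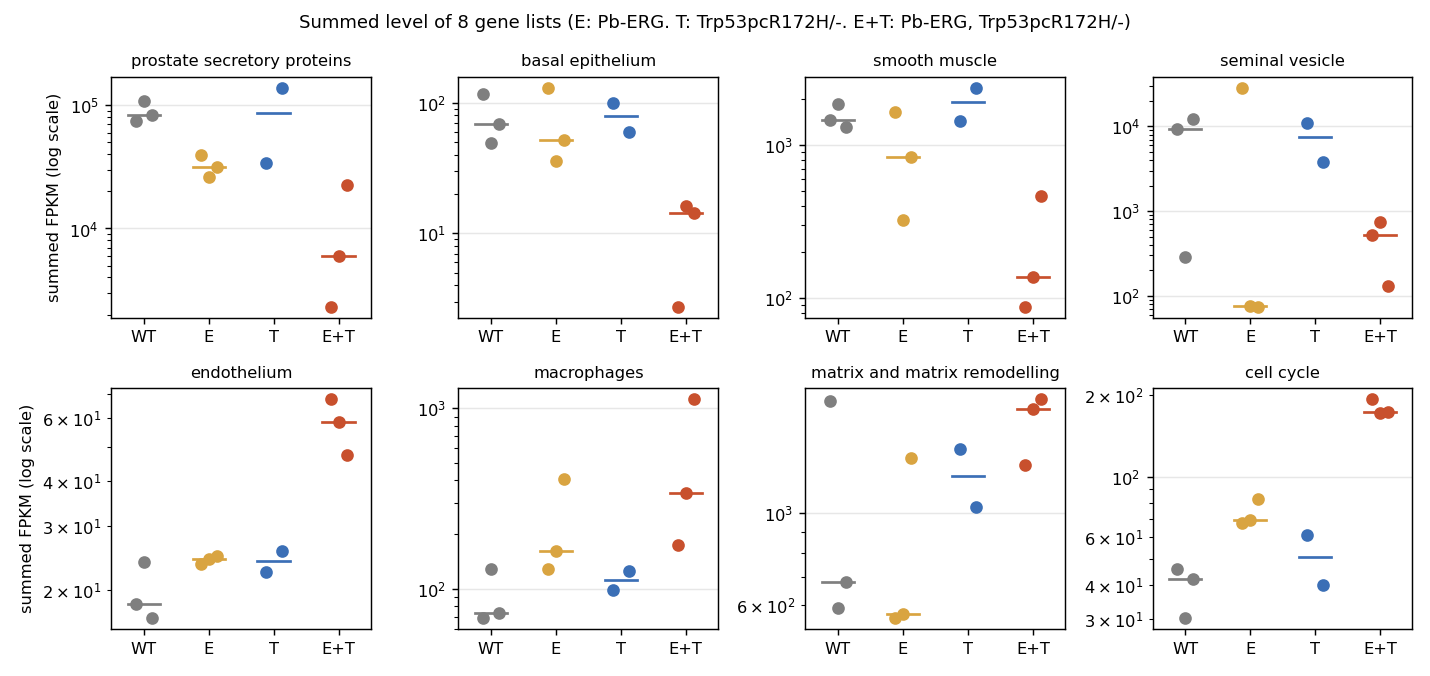
Summed FPKM of 8 gene lists in each of the 11 libraries on a log axis (y), by genotype (x: WT, Pb-ERG as E, Trp53pcR172H/- as T, ERG/Trp53 as E+T), with a line at the group median. The 3 ERG/Trp53 libraries are below both Trp53pcR172H/- libraries for the secretory, basal, smooth muscle and seminal vesicle lists, and above them for the endothelial, macrophage and cell cycle lists.

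The matrix list rose most. Of 12 tested members 10 rose, 6 of them at 0.001 (background 0.995%), and 0 fell (median 3.09), and all 10 passed 0.05 under each alternative. Lox, the lysyl oxidase that crosslinks collagen (chr18:52516069-52529867), had 2.49 and 2.88 against 46.9, 51.5 and 57.4 (log2 fold change 3.84, SE 0.346, adjusted p = 0.000172). The gelatinase Mmp2 had 5.59 and 5.05 against 83.1, 80.4 and 69.0 (3.63, SE 0.358, adjusted p = 0.000257). In both genes each group was tight and the gap between them wide. Tnc, tenascin C, a matrix glycoprotein of remodelling tissue, had 0.753 and 0.721 against 28.8, 21.1 and 10.2 (3.49, adjusted p = 0.000376). Spp1, osteopontin, had 6.58 and 1.40 against 36.5, 162 and 184 (4.61, adjusted p = 0.00146), and Fn1, fibronectin, had 9.48 and 9.52 against 74.9, 57.3 and 47.6 (2.51, adjusted p = 0.00052). Thbs1, Timp1, Sparc, Mmp14 and Loxl2 also rose, by 3.43, 3.35, 2.82, 2.66 and 1.68 on the log2 scale. The exceptions were Postn, with 10.7 and 11.4 against 9.83, 21.3 and 38.9, and the epithelial protease Mmp7, with 1310 and 909 against 291, 918 and 545. Mmp7 alone made up most of the summed level of the list in Trp53pcR172H/-, and that sum overlapped between groups.

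Related gene families were read by symbol after the values were seen, beside the background of 11.5% higher and 3.27% lower. Of 16 tested Adamts and Adamts-like genes, for secreted proteases of the matrix and their relatives, 12 rose and 0 fell, led by Adamts4 (log2 fold change 2.64, adjusted p = 0.000141). Of 32 genes with collagen symbols 15 rose and 1 fell, with Col5a2 up by 3.52 (adjusted p = 0.000141) and Col4a6, a chain of epithelial basement membrane, down (-2.96, adjusted p = 0.0267). They include Col4a3bp, which encodes no collagen chain and was not called. The 4 tested members of the lysyl oxidase family all rose. Of 24 serpin genes 13 rose and 1 fell, Serpina5 (-2.50, adjusted p = 0.0482), and of 14 cathepsins 6 rose, led by Ctsk (3.03, adjusted p = 0.000664), the collagen-degrading cathepsin of bone. Of 11 Ly6 family genes 5 rose and 0 fell, of 13 Mmp genes 5 rose and 0 fell, and of 4 Timp genes 2 rose. Of 10 genes whose symbols begin with Cst 1 rose, near the background of 11.5%. They include cystatins but also Cstf1, Cstf2, Cstf2t and Cstf3, which are not cystatins. These families were not chosen independently of the values and carry no test.

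Of 9 fibroblast markers 4 rose and 0 fell (median 1.13), namely 3 collagens and Pdgfra. Col1a1 had 6.20 and 5.17 against 44.8, 78.7 and 92.5 (log2 fold change 3.39, adjusted p = 0.000479), and Col3a1 had 29.3 and 26.3 against 162, 244 and 419 (3.15, adjusted p = 0.000997). Col1a2 had 17.3 and 17.5 against 38.5, 96.4 and 150.0 (2.18, adjusted p = 0.0124), and its limma call was lost without either Trp53pcR172H/- library (0.0755 and 0.0757). Pdgfra, a receptor that marks mesenchymal cells, had 5.2 and 6.69 against 28.2, 24.7 and 25.7 (1.97, adjusted p = 0.0013). Dcn, decorin, an abundant fibroblast product, overlapped between the groups with 132 and 231 against 124, 74.6 and 374. Among genes of epithelial-mesenchymal transition 2 of 7 tested rose, Fn1 and the repressor Snai1, which had 0.275 and 0.0432 against 2.03, 2.34 and 2.32 (1.49, adjusted p = 0.00251). Cdh1, E-cadherin, had 61.5 and 31.1 against 134, 86.8 and 62.8 (1.02, adjusted p = 0.116) and Cdh2, N-cadherin, was too low to be tested.

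Of 7 endothelial genes 5 rose and 0 fell (median 1.04). Of these calls 1 held without Trp53pcR172H/- replicate 1, 2 without replicate 2, 3 with median-of-ratios and 2 with upper-quartile scaling, and Cdh5 alone under every alternative. Their summed FPKM was 22.4 and 25.7 in Trp53pcR172H/- and 67.6, 58.6 and 47.3 in ERG/Trp53. Cdh5, the cadherin of vessel walls, had 1.72 and 2.06 against 13.9, 14.2 and 6.14 (log2 fold change 2.03, SE 0.325, adjusted p = 0.00254). Pecam1 had 4.72 and 6.95 against 22.3, 14.7 and 13.8 (1.38, adjusted p = 0.00612), and the receptor Kdr had 1.51 and 1.90 against 4.37, 6.00 and 3.81 (1.07, adjusted p = 0.0149). Emcn, endomucin, overlapped, with 8.40 and 7.47 against 8.86, 7.07 and 9.91. Without Trp53pcR172H/- replicate 1 the limma calls of Pecam1 (0.0713) and Kdr (0.109) were lost, the latter also without replicate 2 (0.0626). Erg is itself a gene of endothelial cells, and the part of endothelial Erg in the values of Erg was not tested.

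Myeloid genes were divided. Of 9 macrophage genes 1 rose, near the background of 11.5%, the co-receptor Cd14, with 5.52 and 3.39 against 21.3, 24.3 and 34.8 (log2 fold change 2.35, adjusted p = 0.00175). For 7 of the 9, every ERG/Trp53 library lay above both others, as for 30.1% of all genes, and the median was 1.49. The defining markers Csf1r and Adgre1 were not called, with 5.98 and 6.16 against 6.85, 14.0 and 27.8 for Csf1r and with 2.52 and 3.22 against 4.16, 10.2 and 21.1 for Adgre1. The summed macrophage FPKM was 98.8 and 125 against 175, 339 and 1120, so ERG/Trp53 replicate 3 stood well above replicates 1 and 2. Of 5 neutrophil genes tested 3 rose, S100a8, S100a9 and Ly6g. S100a8, a calcium-binding protein of neutrophils, had 1.22 and 0.179 against 3.66, 40.5 and 38.5 (3.61, adjusted p = 0.014). S100a9 rose by 2.27 (adjusted p = 0.0133) and Ly6g by 4.0 (adjusted p = 0.0243). All 3 missed 0.05 without Trp53pcR172H/- replicate 2 (limma adjusted p = 0.116, 0.134 and 0.131), and S100a8 and Ly6g also without replicate 1 (0.0501 and 0.101). No T cell gene (5 tested) or B and plasma cell gene (3 tested) was called. Jchain, the joining chain of secreted antibody, had 23 and 3.82 against 2.75, 32.4 and 374, and Cd8a stayed under an FPKM of 1.5 in all 5 libraries. Cd3e and Cd79a were too low for the test.

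Signals to immune cells were mixed. Of 14 tested chemokines 5 rose and 0 fell (median 1.53). Cxcl15, a neutrophil-attracting chemokine of mouse epithelia, had 1.12 and 0.461 against 138, 40.9 and 62.1 (log2 fold change 5.35, SE 0.811, adjusted p = 0.00196). Cxcl17, of mucosal surfaces, had 0.961 and 3.04 against 100, 21.9 and 19.6 (3.69, adjusted p = 0.0165), and Cxcl1 had 0.367 and 0.514 against 2.73, 5.10 and 7.54 (2.01, adjusted p = 0.0192). The calls of Cxcl17 and Cxcl1 were lost without Trp53pcR172H/- replicate 1 (limma adjusted p = 0.126 and 0.108) and replicate 2 (0.053 and 0.0904). Neither Ccl2, with 0.978 and 0.431 against 0.916, 6.43 and 18.2, nor Cxcl12, with 3.45 and 4.97 against 1.96, 5.82 and 5.95, was called. Of 13 interferon response genes 4 rose (median 1.46), led by Rsad2 (2.16, adjusted p = 0.043), Gbp2 (1.89, adjusted p = 0.0422) and Bst2 (1.75, adjusted p = 0.0349). In these genes ERG/Trp53 replicate 1 was the lowest of its group, with Rsad2 at 3.71 beside 26.1 and 11.1 and Isg15 at 4.43 beside 60.6 and 41.8. The 3 calls were among the least firm, being lost for each gene without WT replicate 1, WT replicate 2, either Trp53pcR172H/- library or ERG/Trp53 replicate 2 or 3, for Rsad2 and Gbp2 also without WT replicate 3 or Pb-ERG replicate 2, and for Rsad2 without Pb-ERG replicate 3 (limma adjusted p from 0.0513 to 0.252), and with median-of-ratios scaling (0.0558 to 0.0681). None of 13 antigen presentation genes was called (median 0.79). The class I genes H2-K1, with 219 and 88.7 against 119, 340 and 348, and H2-D1, with 235 and 206 against 192, 624 and 413, overlapped between groups.

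Pyrimidine and deoxynucleotide synthesis was the pathway singled out in the study, partly on these libraries, so Umps, Rrm1, Rrm2 and Tyms are not independent evidence of its direction. Of 23 members 11 rose, 1 fell and 11 were not called (median 0.94). Of the 12 calls, 7 held without Trp53pcR172H/- replicate 1, 5 without replicate 2, and 5 (Rrm1, Rrm2, Tyms, Dut and Dck) under every alternative. Rrm2 (chr12:24708241-24714146), the regulated subunit of ribonucleotide reductase, had an FPKM of 3.38 and 1.98 in Trp53pcR172H/- and of 14.6, 38.4 and 28.8 in ERG/Trp53 (log2 fold change 2.87, SE 0.344, adjusted p = 0.000673). Its partner Rrm1 (chr7:102441695-102469771) had 6.17 and 3.98 against 17.6, 20.9 and 15.0 (1.65, SE 0.262, adjusted p = 0.00246). Tyms (chr5:30058827-30073617), thymidylate synthase, had 1.64 and 1.75 against 6.31, 4.95 and 6.22 (1.33, SE 0.198, adjusted p = 0.00173). Umps (chr16:33954782-33967038), which makes uridine monophosphate, had 1.56 and 1.51 against 3.71, 4.93 and 4.81 (1.11, SE 0.247, adjusted p = 0.0133). In all 4 genes the ERG/Trp53 libraries lay above both others, as for 30.1% of all genes. Umps missed 0.05 without Trp53pcR172H/- replicate 1 or replicate 2 (limma adjusted p = 0.0753 and 0.0851). Dut, which removes dUTP, had the smallest SE of these 5 genes, with 4.19 and 4.05 against 16.4, 16.3 and 15.5 (1.74, SE 0.189, adjusted p = 0.000424).

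Besides Umps, Rrm1, Rrm2, Tyms and Dut the rises included the deoxynucleotide genes Dctd (1.41) and Dck (1.32), and Shmt1 (0.94), Ctps (1.14) and the salvage gene Upp1 (1.17). The study also names Dck, Tk1 and Impdh1, as genes without clear change on knockdown of ERG or mutant p53 in human VCaP cells. Other deoxynucleotide genes were not called, namely Tk1 (0.66, adjusted p = 0.126), Dtymk (0.03, adjusted p = 0.937) and Rrm2b (-0.43, adjusted p = 0.295). Without Trp53pcR172H/- replicate 2 the limma calls of Dctd (0.0747), Ctps (0.0908), Upp1 (0.0832), Shmt1 (0.246) and Tk2 (0.127) were lost, and without replicate 1 those of Ctps (0.0547), Shmt1 (0.108) and Tk2 (0.178). The call of Shmt1 was also lost without any 1 WT library, Pb-ERG replicate 1 or ERG/Trp53 replicate 1 or 3 (0.0501 to 0.104 in limma), and that of Tk2 without WT replicate 2 or 3 or ERG/Trp53 replicate 1 or 2 (0.0549 to 0.0855 in limma). Cad and Dhodh, which act early in the de novo path, were not called, with Cad at 5.47 and 5.99 against 18.1, 10.5 and 9.47 (0.97, adjusted p = 0.142) and Dhodh at 7 and 7.45 against 4.51, 4.62 and 5.68 (-0.48, adjusted p = 0.22). Mitochondrial Tk2 fell, with 13.7 and 12.5 against 6.38, 7.93 and 7.85 (-0.76, adjusted p = 0.0349). Purine synthesis showed 1 rise, 1 fall and 11 genes not called of 13 (median 0.54). Prps2, which makes the ribose phosphate donor of both pathways, had 6.93 and 8.80 against 48.5, 18.6 and 30.6 (1.83, adjusted p = 0.00525, and 0.0548 in limma without Trp53pcR172H/- replicate 1). Impdh1 had 12.1 and 10.3 against 4.38, 7.16 and 5.37 (-0.90, adjusted p = 0.0373), and its limma call was lost without WT replicate 1 or 3, either Trp53pcR172H/- library or ERG/Trp53 replicate 1 or 3 (0.0542 to 0.197). The first enzyme Ppat (0.78, adjusted p = 0.0869) and Impdh2 (0.57, adjusted p = 0.222) were not called.

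Promoters were listed for all 5 genes that the study centres on, Ctnnb1, Umps, Rrm1, Rrm2 and Tyms, and the ETS motif was found in 2, Umps and Tyms. In human VCaP cells the study reports ERG binding at the CTNNB1 promoter and at the UMPS, RRM1, RRM2 and TYMS loci. A promoter without a match here is therefore not shown to lack ERG binding. The promoters of Umps and Tyms are shown as above, with the motif in capitals. In Umps (chr16:33966989-33967288, minus strand) it begins 73 bases before the start. In Tyms (chr5:30073576-30073875, minus strand) there are 3 matches, the first 26 bases before the start, where 1 is CCGGAAG and the others CAGGAAG.
Umps: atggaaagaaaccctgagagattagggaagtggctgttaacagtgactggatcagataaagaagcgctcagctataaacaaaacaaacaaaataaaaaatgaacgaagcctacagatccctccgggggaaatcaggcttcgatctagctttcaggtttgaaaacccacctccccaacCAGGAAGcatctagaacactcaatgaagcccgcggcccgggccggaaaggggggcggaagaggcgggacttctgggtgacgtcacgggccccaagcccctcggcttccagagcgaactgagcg
Tyms: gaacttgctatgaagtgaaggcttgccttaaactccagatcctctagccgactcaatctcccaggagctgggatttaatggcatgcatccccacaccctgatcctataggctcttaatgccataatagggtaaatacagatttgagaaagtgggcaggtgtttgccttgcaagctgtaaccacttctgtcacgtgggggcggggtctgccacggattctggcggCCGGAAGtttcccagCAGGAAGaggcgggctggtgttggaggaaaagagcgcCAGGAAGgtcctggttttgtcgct

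Of 24 cell cycle genes 23 rose and 0 fell (median 1.45), 2 of them at 0.001 (background 0.995%). For all 24 the ERG/Trp53 libraries were above both others, where 30.1% of all genes were so. The summed FPKM was 60.9 and 40.1 in Trp53pcR172H/- and 193, 172 and 173 in ERG/Trp53. Mki67, which encodes the proliferation marker Ki67, had 1.16 and 0.41 against 12.2, 8.90 and 3.36 (log2 fold change 2.25, SE 0.412, adjusted p = 0.00501), and Top2a, topoisomerase II alpha, had 4.81 and 2.04 against 15.8, 15.0 and 10.9 (1.81, SE 0.277, adjusted p = 0.00204). Cyclin B2, Ccnb2, had 1.90 and 0.454 against 8.59, 8.72 and 6.58 (2.12, adjusted p = 0.00167), and the mitotic activator Cdc20 had 3.18 and 0.742 against 11.1, 10.5 and 6.98 (1.94, adjusted p = 0.00501). Replicate 1 was the higher Trp53pcR172H/- library for each of these 4. Without Trp53pcR172H/- replicate 2 the limma adjusted p was 0.0567 for Mki67 and 0.0507 for Cdc20, and of the 23 calls 18 held without replicate 1, 12 without replicate 2 and 12 under every alternative. Foxm1 was the exception, with 0.456 and 0.207 against 1.37, 1.54 and 0.79 (0.74, adjusted p = 0.0592).

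Of 20 p53 target genes 4 rose and 0 fell (median 0.61). Cdkn1a, the p21 inhibitor of cyclin-dependent kinases, had 1.14 and 0.409 against 4.02, 4.47 and 5.91 (log2 fold change 1.72, adjusted p = 0.00347). The death genes Pmaip1, with 0.89 and 0.212 against 3.66, 4.79 and 5.13 (1.86, adjusted p = 0.00184), and Tnfrsf10b, with 0.522 and 0.221 against 2.99, 2.57 and 2.04 (1.36, adjusted p = 0.00373), rose as well, and the fourth was Plk2, whose call was lost without Trp53pcR172H/- replicate 1 or 2 or ERG/Trp53 replicate 2 (limma adjusted p = 0.0607, 0.153 and 0.0602). Mdm2, which targets p53 for breakdown, had 17.6 and 16.6 against 21.2, 17.8 and 14.5 (0.04, adjusted p = 0.928), a value that was -0.20 with median-of-ratios scaling. Of 14 tested beta-catenin pathway genes 2 rose, near the background of 11.5%, and 1 fell (median 0.00). Ctnnb1, beta-catenin, a gene of the study, had 118 and 103 against 306, 186 and 172 (0.95, SE 0.323, adjusted p = 0.0733, from 0.0449 to 0.302 over the alternatives in limma). Lef1, a partner of beta-catenin, had 0.599 and 0.399 against 2.90, 4.04 and 1.34 (1.26, adjusted p = 0.0155), and Myc had 11.1 and 7.66 against 22.3, 21.6 and 13.5 (0.94, adjusted p = 0.0316). The feedback inhibitor Nkd1 fell, with 18.7 and 11 against 0.262, 1.21 and 1 (-3.12, SE 0.445, adjusted p = 0.00149), whereas Axin2 had 11.7 and 6.36 against 6.01, 6.06 and 3.87 (-0.64, adjusted p = 0.188). The calls of Lef1 and Myc were lost without Trp53pcR172H/- replicate 1 (limma adjusted p = 0.069 and 0.0573) and replicate 2 (0.114 and 0.25), that of Myc also without WT replicate 1 or 3 or ERG/Trp53 replicate 1 or 2 (0.0523 to 0.0913).

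Of the ETS family 11 members were tested, of which 4 rose and 1 fell (median 0.66). Besides Erg, Ets1 had 2.67 and 2.62 against 8.14, 8.89 and 7.90 (log2 fold change 1.35, SE 0.206, adjusted p = 0.00201), and Etv4 and Etv5 rose by 0.83 and 0.81 (adjusted p = 0.0171 and 0.0491 in limma). Etv4 missed 0.05 without Trp53pcR172H/- replicate 1 or replicate 2 (0.101 and 0.102), and Etv5 without any 1 library other than ERG/Trp53 replicate 1 (0.0509 to 0.247 in limma) and with median-of-ratios scaling (0.0914). Fli1, the closest relative of Erg, had 1.22 and 2.49 against 3.17, 3.88 and 7.22 (0.99, adjusted p = 0.0605). The epithelial member Ehf fell, with 286 and 106 against 26.3, 74.6 and 22.8 (-2.25, adjusted p = 0.0289), and its limma call was lost without Trp53pcR172H/- replicate 1 or ERG/Trp53 replicate 1 or 3 (0.227, 0.0722 and 0.0691). Of 12 tested genes linked to ERG in prostate cancer 5 rose and 0 fell (median 1.33). Plat, tissue plasminogen activator, had 5.67 and 3.96 against 195, 68.8 and 66.7 (4.08, SE 0.503, adjusted p = 0.000741). Its relative Plau, urokinase, had 6.71 and 4.84 against 7.83, 11.9 and 28.1 (1.15, adjusted p = 0.495). Ezh2, a histone methyltransferase (1.51), the receptor Cxcr4 (1.77), Arhgdib (2.23, adjusted p = 0.00885) and Pla1a (2.19, adjusted p = 0.00657) made up the other rises. Arhgdib, with 5.12 and 4.97 against 14.5, 28.5 and 48.8, missed 0.05 without Trp53pcR172H/- replicate 1 or replicate 2 (limma adjusted p = 0.0588 and 0.0624), and Pla1a, with 3.61 and 6.5 against 21.7, 20.4 and 38.7, without replicate 1 (0.0713).

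The remaining lists are read against the same background of 11.5% higher and 3.27% lower. Of 15 tested growth factors and receptors 2 rose, near that background. Igf1, insulin-like growth factor, had 3.04 and 3.80 against 27.4, 22.1 and 34.2 (log2 fold change 2.69, SE 0.35, adjusted p = 0.000946). Hgf, hepatocyte growth factor, had 2.59 and 1.35 against 8.71, 12.7 and 10.9 (2.01, adjusted p = 0.00474, and 0.0564 in limma without Trp53pcR172H/- replicate 2). The receptors Egfr (0.33, adjusted p = 0.295) and Erbb2 (0.04, adjusted p = 0.948) were not called, the latter changing sign with scaling. Of 10 Hox genes tested 2 rose and 1 fell. Hoxa11 had 2.95 and 4.07 against 19.3, 21.1 and 14.8 (2.10, adjusted p = 0.00486) and Hoxb9 had 15.4 and 8.05 against 0.165, 0.844 and 0.573 (-3.02, adjusted p = 0.00514). Without Trp53pcR172H/- replicate 1 the limma adjusted p was 0.0506 for Hoxa11 and 0.0589 for Hoxb9. Hoxa10 had 9.53 and 13.6 against 25.9, 25.5 and 18.0 (0.94, adjusted p = 0.0481), a call lost without any 1 of 8 libraries, both of Trp53pcR172H/- and replicates 1 and 2 of ERG/Trp53 among them (0.0518 to 0.272 in limma), while Hoxa9 was not called (0.58, adjusted p = 0.295).

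Among 9 polyamine genes Smox rose and Sms, spermine synthase, fell, the latter with 7.65 and 6.5 against 2.62, 2.40 and 2.97 (log2 fold change -1.14, SE 0.195, adjusted p = 0.00351). Smox, spermine oxidase, had 5.91 and 3.98 against 18.5, 8.71 and 11.7 (1.19, adjusted p = 0.0369), and its limma call was lost without any 1 WT library, either Trp53pcR172H/- library or ERG/Trp53 replicate 1 or 3 (0.0511 to 0.241). Of 18 genes of the endoplasmic reticulum and secretion 2 rose, Lman1l and the transcription factor Creb3l1, near the background of 11.5%, and 0 fell (median -0.44). Creb3l1 had 1.45 and 1.21 against 10.1, 10 and 4.68 (1.93, adjusted p = 0.0198, and in limma 0.0881, 0.118 and 0.0582 without Trp53pcR172H/- replicate 1, replicate 2 and ERG/Trp53 replicate 2). The chaperone Hspa5 had 714 and 1200 against 458, 760 and 547. Of 7 WAP genes tested 2 rose, Wfdc2 and Wfdc18, and Wfdc12 fell, with 119 and 54.7 against 3.09, 2.66 and 4.18 (-4.26, adjusted p = 0.0254, and in limma 0.157, 0.0781 and 0.0624 without Trp53pcR172H/- replicate 1, replicate 2 and ERG/Trp53 replicate 2). Of the small non-coding RNAs none was called, with Rn7sk at 38100 and 128000 against 123000, 76300 and 156000.

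To ask whether ERG did the same with wild-type Trp53, the change from WT to Pb-ERG was set beside the change described so far. The contrasts share no library, but both use the same estimate of the spread of each gene. Their calls are therefore not independent. Pb-ERG against WT gave 246 genes higher (1.58%) and 50 lower (0.321%) at 0.05. Of these, 181 higher genes were also higher with mutant Trp53, which is 73.6% of the Pb-ERG list and 10.1% of the longer list, and 39 lower genes were shared, 78.0% and 7.66%. No gene was called in opposite directions. The genes that rose with mutant Trp53 had a median log2 fold change of 1.42 there and of 0.53 with wild-type Trp53, and the genes that fell had -1.44 and -0.61, where the first value of each pair chose the genes. Several large changes were of like size in both. Lman1l rose by 6.63 with mutant and by 6.27 with wild-type Trp53 (54.7, 172 and 244 in Pb-ERG), Serpinb11 by 5.75 and 5.53, and Mir675 by 5.30 and 5.64. Erg changed by 2.88 and 2.59, with an adjusted p of the difference of 0.938 in limma.

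**Figure D5:**
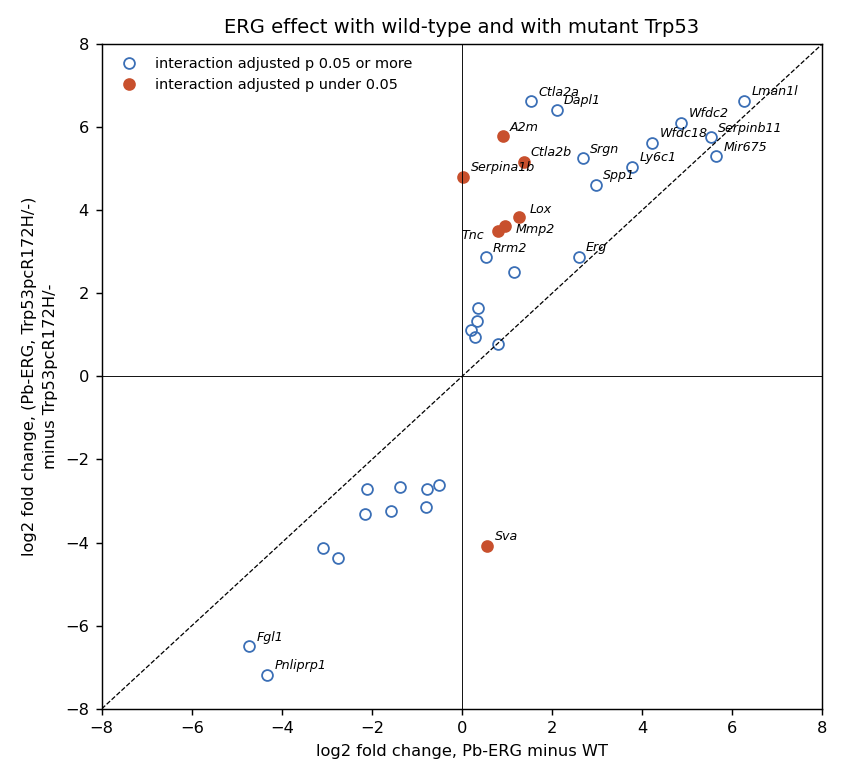
Log2 fold change on adding ERG with wild-type Trp53 (x axis, Pb-ERG minus WT) and with mutant Trp53 (y axis, ERG/Trp53 minus Trp53pcR172H/-) for the engineered and study genes, the 24 largest changes and the named matrix genes, with the dashed line at equality. Filled points, among them A2m, Ctla2b, Serpina1b and Sva, passed the test of the difference at 0.05.

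The difference between the 2 ERG effects, for which Pb-Cre may differ as well as Trp53, was tested as an interaction in the same fit. It was called for 73 genes at 0.05 (0.468%), 70 with the ERG effect more positive with mutant Trp53 and 3 more negative, and for 0 genes at 0.001 in limma, where 1562 had an unadjusted p under 0.05. The comparison of ERG/Trp53 with Trp53pcR172H/- is a part of the interaction, so an overlap of their calls is partly built in. Of the 73, 71 were also called in that comparison. Ctla2b was among them, with 4.81, 3.29 and 4.89 in Pb-ERG and 0.704, 1.55 and 0.938 in WT, as were A2m, Serpina1b, Tnc, Lox, Mmp2, Dut and Sva. Of these 8, Ctla2b and Sva alone passed with the short RNA class as covariate or without Trp53pcR172H/- replicate 1, and 0 passed with limma-voom (lowest adjusted p 0.0573). Rrm2 had log2 fold changes of 2.87 and 0.53 (adjusted p of the difference = 0.0592 in limma), Rrm1 of 1.65 and 0.35 (0.165), Tyms of 1.33 and 0.34 (0.159) and Umps of 1.11 and 0.21 (0.359), so none of these 4 passed 0.05. The count of 73 was 24, 11 and 11 without WT replicates 1 to 3, 31 and 35 without Pb-ERG replicates 2 and 3, 6 and 39 without Trp53pcR172H/- replicates 1 and 2, and 35 and 193 without ERG/Trp53 replicates 2 and 3. All 3 Pb-ERG libraries were low and all 3 ERG/Trp53 libraries high in the short RNAs (limit 4% of fragments), and with that class as a covariate 4 genes were called.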

How the data were processed

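RNA sequencing libraries of prostate tissue were analysed from the deposited FPKM tables. The authors extracted RNA from flash-frozen tissue, sequenced paired-end TruSeq libraries, aligned them with STAR (2.5.2b in the submitters' notes) to GRCm38 (mm10), and normalised fragments per gene with RSeQC. The deposited FPKM are fragments divided by exon length and by the library total, for 29291 loci per library. Their steps gave library totals and whole fragments, used for depth and for limma-voom (99.5% to 99.7% of values at short loci were within 0.001 of a whole number). Intervals from depth were not given, since the spread between libraries was the error used.

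Groups came from the sample labels. FPKM were tested as log2(FPKM + 1) with limma 3.58.1 in R 4.3.3, for the 15583 genes that reached an FPKM of 1 in 2 or more libraries. The model had a mean per genotype over the 11 libraries (7 residual degrees of freedom) and a prior variance that followed the mean. P-values were two-sided, adjusted by the Benjamini-Hochberg method over all genes tested, and every p-value in the text comes from this fit unless another is named. The fit was tested on simulated data. The members and gene lists were chosen with earlier results of these data known. Named genes were the 12 largest rises and falls with an adjusted p under 0.001, no overlap between groups and a mean FPKM of at least 5 in the higher group, the engineered and study genes, and from each list the first 2 members and the 3 largest called changes. Every other list or family member in the text was named after its values were seen, to give further called members or exceptions. The kit does not mark strand, so overlapping antisense genes cannot be told apart. Alternatives changed the scaling, pseudocount, filter, variance model, covariates and libraries. Gene symbols in the tables were matched to current symbols for 27342 loci, to synonyms for 858, and kept as written for 1091. Some list members are counted in their lists but not reported here by name. The same numbers of replicates do not mark shared animals in the labels.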

Additional observations from a re-analysis of the deposited data

Results flagged for a closer look

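Among the genes named, 8 differed in their ERG effect between mutant and wild-type Trp53, with an interaction adjusted p under 0.05 in limma. The difference (ERG effect with mutant minus with wild-type Trp53, log2 scale) was 4.88 for A2m, 4.78 for Serpina1b, 3.79 for Ctla2b, 2.69 for Tnc, 2.68 for Mmp2, 2.57 for Lox and 1.70 for Dut. For Sva it was -4.63. The adjusted p was 0.00154 for Ctla2b, 0.00283 for Sva, 0.0137 for A2m, 0.0211 for Dut, 0.0341 for Serpina1b, 0.0421 for Mmp2, 0.0431 for Lox and 0.0483 for Tnc. With limma-voom none of the 8 passed 0.05 (adjusted p from 0.0573 to 0.565), and with the short RNA class as covariate 2 did, Ctla2b and Sva. With 1 library left out, from 2 to 8 passed. Ctla2b and Sva passed whichever library was left out. Without WT replicate 2, WT replicate 3 or Trp53pcR172H/- replicate 1 they alone did. Serpina1b had an FPKM of 0.3, 0.137 and 0.383 in Pb-ERG and 0.316, 0.164 and 0.253 in WT, and Dut had 4.24, 3.86 and 5.03 against 5.01, 4.23 and 3.54, with overlap between the groups in both genes. Pb-ERG replicate 2 was the highest of its group for A2m, with 3.30 beside 0.051 and 0.664.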

How the results depend on the processing

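The count of 172 genes at 0.001 was 101 with upper-quartile scaling, 41 with limma-voom on recovered fragments, 4 without a filter, 3 with the short RNA class (over 4% of fragments) as covariate, and 0 in limma on the 5 compared libraries alone (3707 at an unadjusted p under 0.05). It ranged from 1 to 250 when 1 library was left out. The count of 2300 at 0.05 was 944 on the 5 libraries alone and ranged from 962 to 2534. The interaction count of 73 was 26 with upper-quartile scaling, 20 with a pseudocount of 0.1, 39 without a filter, 4 with the class covariate and 0 with limma-voom (1363 unadjusted), and ranged from 6 to 193. The cause was not tested.

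The labels do not say whether the replicate numbers pair the libraries. The Pearson r of deviations was -0.0223 and -0.347 for the 2 shared numbers. With 2 Trp53pcR172H/- libraries the deviations of that group mirror each other, so these values cannot decide the question. With the replicate block 19 genes passed 0.001, 1888 passed 0.05 and 33 the interaction.

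Named genes that were not called in the reported comparison changed sign in some fits. Their log2 fold changes became -0.74 (Msmb), 0.14 (Krt8), 0.18 (Krt4), 0.0057 (Syp), -0.20 (Cxcl12) and -0.12 (Rn7sk) with the class covariate. With median-of-ratios and upper-quartile scaling they became -0.20 and -0.19 for Mdm2, -0.19 and -0.17 for Cxcl12, and -0.19 and -0.17 for Erbb2. Cxcl12 was also -0.02 with a pseudocount of 0.1, -0.0047 with limma-voom and -0.0025 with the replicate block. With 1 library left out they ranged from -2.63 to 4.10 for Msmb, -0.56 to 0.26 for Krt8, -0.37 to 0.27 for Krt4, -0.86 to 0.30 for Dcn, -0.05 to 0.58 for Cd8a and -1.85 to 0.05 for Plin1. They ranged from -0.08 to 0.17 for Mdm2, -0.20 to 0.42 for Cxcl12, -1.10 to 0.25 for Amd1, -0.37 to 0.46 for Erbb2 and -0.17 to 1.58 for Rn7sk. The shallowest of the 5 compared libraries had 14280978 fragments, and genes that reached an FPKM of 1 in fewer than 2 libraries were not tested.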
